A study of Mus musculus with 36 samples.

Results

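This account sets 6 left ventricle arrays titled only as controls, with no line named, against the 3 arrays titled as MKK7D controls at the early time point, 9 of the 36 arrays in the study. Members were taken from the array titles and not by a measured value, though earlier results of these data were known when they were chosen. The first set holds 3 males (replicates 1, 2 and 5) and 3 females (replicates 4, 1 and 2) and is called the shared controls, since its titles name no line and the HRas-v12 and MKK3bE lines have no other control among these arrays. The second set holds the arrays titled as female MKK7D controls 1, 2 and 3, of which array 1 went against its titled sex, as given below.

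The study measured gene expression in mouse heart after switching on 1 of 3 activators of mitogen-activated protein kinase signalling, HRas-v12, MKK3bE or MKK7D. Each activator was a floxed transgene driven by the promoter of alpha myosin heavy chain, which is active in heart muscle cells. That line was crossed to mice with Mer-Cre-Mer, a tamoxifen-dependent Cre recombinase under the same promoter. Per the labels, controls were littermates without the transgenes, all lines were on a C57 black background, and every animal received tamoxifen (20 mg/kg, 3 daily injections) at 12 weeks of age. Hearts were taken 4 to 7 days (early) or 2 to 4 weeks (late) after the first injection. The early MKK7D controls belong to the first window, while the titles of the shared controls carry no time. The other MKK7D groups used here are early transgenic females (replicates 5, 6 and 7), late control females (8, 9 and 10) and late transgenic females (13, 14 and 15). The labels used here give no harvest hour.

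Cells of the heart keep a circadian clock. In it Arntl (Bmal1) and Clock drive the Per, Cry, Nr1d1 and Ciart genes through E-boxes, and the Per and Cry proteins shut that drive off again. Nr1d1 (Rev-erb alpha) represses Arntl and Nfil3 through ROR elements, and Dbp, Tef and Hlf pass the rhythm on through D-boxes, where Nfil3 acts against them. Levels of such genes in a single sample therefore depend on the hour of harvest. Inbred mouse strains, and substrains sold under similar names, differ at known loci in the expression of single genes, such as Nnt, Alad and members of the Trim12 and Trim30 group.

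The promoters of 3 clock genes on which the results turn are shown as the 250 bases upstream of the RefSeq start site, 5′ to 3′ on the gene's strand, in GRCm38.p6. Ciart lies at chr3:95882229-95882478, Nr1d1 at chr11:98775378-98775627 and Nfil3 at chr13:52981040-52981289, all on the minus strand. Capitals mark the E-box CACGTG, the D-boxes TTATGTAA and TTACGTAA and the ROR half-sites AGGTCA and GGGTCA, searched on both strands.
Ciart: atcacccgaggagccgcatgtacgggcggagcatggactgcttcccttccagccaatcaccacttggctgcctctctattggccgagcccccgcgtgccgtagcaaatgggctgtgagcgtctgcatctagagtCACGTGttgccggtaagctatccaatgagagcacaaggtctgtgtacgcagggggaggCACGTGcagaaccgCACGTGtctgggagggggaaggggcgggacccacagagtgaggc
Nr1d1: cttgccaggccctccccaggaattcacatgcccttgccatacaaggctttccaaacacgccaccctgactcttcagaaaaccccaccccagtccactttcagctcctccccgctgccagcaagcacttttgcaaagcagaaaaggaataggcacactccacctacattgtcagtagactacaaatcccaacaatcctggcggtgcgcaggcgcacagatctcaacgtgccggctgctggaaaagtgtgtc
Nfil3: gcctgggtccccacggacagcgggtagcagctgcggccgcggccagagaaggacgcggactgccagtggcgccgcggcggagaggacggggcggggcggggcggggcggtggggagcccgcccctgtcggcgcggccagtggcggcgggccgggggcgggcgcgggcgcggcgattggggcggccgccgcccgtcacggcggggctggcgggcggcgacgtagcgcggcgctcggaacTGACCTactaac
Ciart holds 3 E-boxes, starting 116, 58 and 44 bases upstream of the start, and 0.429% of the 32851 promoters of this length hold 2 or more, against 6.02% with at least 1. Nfil3 holds 1 ROR half-site on the opposite strand, 12 bases upstream of the start, as 23.8% of promoters do on either strand. None of these letters occur in the window of Nr1d1. D-boxes occur in 0.931% of promoters and in none of the 3 windows. A match describes the letters only.

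Some arrays went against their titles or stood apart, which bears on every comparison below. The array titled MKK7D control female early replicate 1 read as the shared males did: Xist, the X-inactivation transcript of females, was at 2316 against 1232 to 1670 in the shared males, and the Y-linked Eif2s3y was at 6018 against 4326 to 4780. Replicates 2 and 3 had Xist at 10912 and 17159 and Eif2s3y at 5 and 12. Esr1, the estrogen receptor whose ligand-binding part is built into Mer-Cre-Mer, had a signal of 88303 to 143792 on the 6 MKK7D transgenic arrays. It was at 7288, 3506 and 294 on the early MKK7D control arrays 1, 2 and 3. The shared controls had 294 to 832, apart from 7943 on shared female 2. Late MKK7D control arrays 8 and 9 had 106402 and 91291, and array 10 had 953. These are values of the brightest Esr1 probe set. A further one was at 349 to 946 on the shared and MKK7D control arrays, with 521 and 495 on late controls 8 and 9. The probe sets therefore disagree, and whether the brightest one reads the Mer-Cre-Mer transgene was not tested.

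Array 2 of the early MKK7D controls also lay apart from the other 2 in its expression profile. A position between the shared females (0) and the late MKK7D transgenic arrays (1) was computed over 513 genes, 4.06% of those tested. These were chosen in a fit without the early controls, as at least 2-fold different between the late transgenic arrays and the shared females. Early control arrays 1, 2 and 3 lay at 0.264, 0.587 and 0.192, the early transgenic arrays at 0.669 to 0.765 and the shared males at 0.143 to 0.221. Array 2 was nearer to the late transgenic mean at 316 of the 513 genes (61.6%), array 1 at 124 (24.2%) and array 3 at 129 (25.1%). Genes that show it, picked after their values were seen, include Mybpc2, a myosin-binding protein of fast muscle, at 9437, 42091 and 4079 on arrays 1, 2 and 3. Otud1, a deubiquitinase, was at 3418, 11094 and 2726. Tgfb2, a growth factor of matrix remodelling, was at 2055, 5870 and 1422. The arrays labelled late control 8 and 9 lay at 0.914 and 0.989, close to the late transgenic arrays (0.982 to 1.023), and late control 10 lay at 0.274. Transgenic arrays of the HRas-v12 and MKK3bE lines lay at 0.078 to 0.752, so a position between 0 and 1 is not particular to the MKK7D line.

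**Figure D1:**
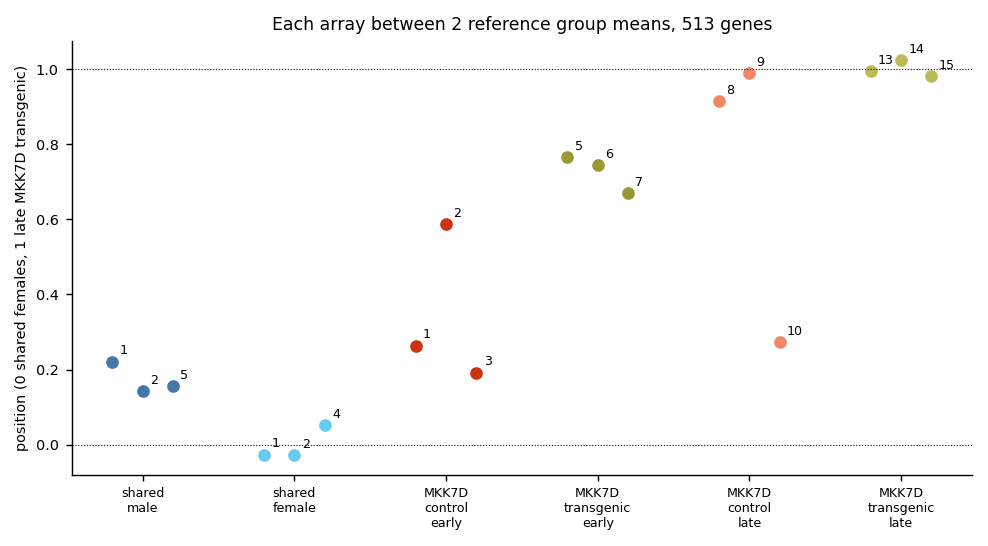
Position of each shared control and MKK7D array along the line from the mean of the shared females (0) to the mean of the late MKK7D transgenic arrays (1), over 513 genes, with replicate numbers beside the points. Early MKK7D control 2 sits at 0.587 and late controls 8 and 9 at 0.914 and 0.989, away from the other arrays titled as controls.

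The values are array signals scaled by the submitters to the same trimmed mean of 2500 on each array. The median signal was 684 to 789.6 on the shared controls and 599.3 to 642.2 on the early MKK7D controls, with no overlap (exact permutation test, two-sided, p = 0.0238, the smallest that 84 splits allow). The other 9 MKK7D arrays had 593.5 to 693.1 and the arrays of the other lines 649.3 to 798.6. The top 100 probe sets took up 8.117 to 9.735% of total signal on the shared and 6.934 to 8.257% on the early MKK7D controls (exact permutation test, two-sided, p = 0.0476). The 3′ to 5′ ratio, a sign of RNA quality, was 0.8 to 0.893 and 0.798 to 0.868 for Gapdh (p = 0.833 by the same exact test) and 1.15 to 1.525 and 1.068 to 1.215 for Actb (p = 0.119 by the same exact test). No p was adjusted over these 4 measures. Over the tested genes, correlations were 0.954 to 0.967 among the shared controls, 0.966 to 0.973 among the early MKK7D controls and 0.939 to 0.963 between the sets. The median standard deviation of a gene over 3 arrays was 0.211 (log2) in shared males, 0.213 in shared females and 0.194 in early MKK7D controls. Ventricular muscle markers were bright on all 9 arrays (summed signal of 9 markers 1235714 to 1657120 on shared, 1006816 to 1275786 on early MKK7D controls).

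The first comparison asks how far the baseline of the MKK7D line lay from the controls of the other lines. The early MKK7D controls had about 3-fold less Nr1d1 mRNA than the shared controls and about 3-fold more Nfil3 mRNA, a pair of clock repressors. They had less Slc45a1, a sugar transporter, less Junb, a subunit of the AP-1 transcription factor, and less of the mitochondrial genes Tomm20 and Cox8c. They had more Casq1, the calcium-binding calsequestrin of the sarcoplasmic reticulum best known from fast skeletal muscle, more Mvk, a kinase of the mevalonate pathway, and more Eif2b1 and Aimp1, both of the translation machinery. Of these, Slc45a1, Tomm20, Cox8c, Eif2b1 and Aimp1 were picked after their values were seen. In limma, 397 of 12627 genes passed an adjusted p of 0.05, which is 3.14%, with 98 rises (0.776%) and 299 falls (2.37%). Among the 397, 114 differed at least 2-fold, and 2407 genes had an unadjusted p under 0.05.

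No overlap between the 3 early and the 6 shared arrays was seen for 1340 genes (10.6% of those tested), 478 higher and 862 lower, and 342 of the 397 called genes, which were called on these same arrays, were among them. The count of called genes rested on several arrays and on the spread shared with the other 27. It was 117 without early array 2, 155 without early array 3, 260 without early array 1, 204 without shared male 5 and 262 without shared female 4. It was 170 in a fit of the 9 arrays alone and 63 with early array 3 as the only early control, which is then assumed to vary like the other groups.

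**Figure D2:**
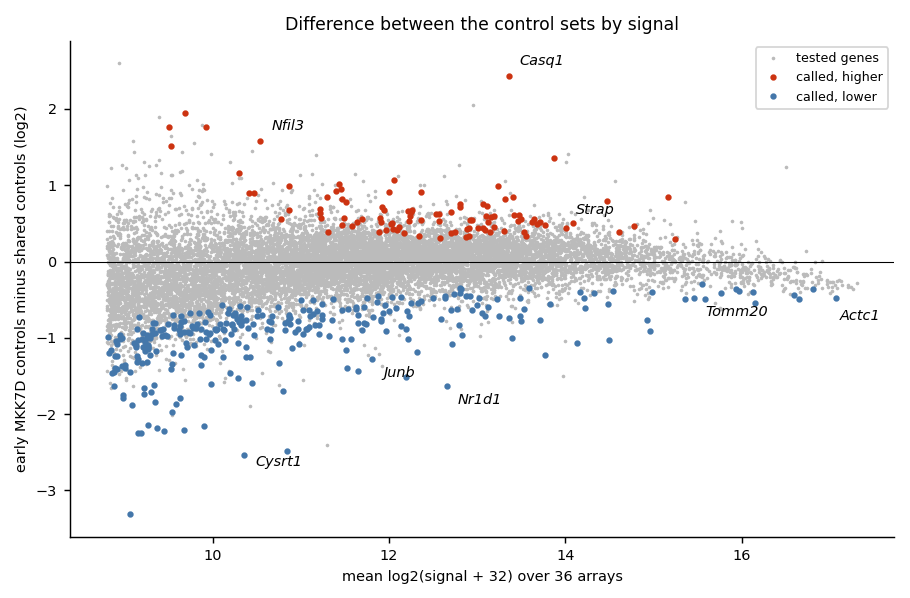
Difference between early MKK7D and shared controls (log2) against mean log2(signal + 32) over 36 arrays for 12627 genes, with 98 genes called higher in red and 299 called lower in blue. Lower calls crowd at the dim left end, while higher calls become more frequent with signal, from 4 among the dimmest 3157 genes to 43 among the brightest 3157.

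The balance of falls over rises changed with brightness. Among the 3157 dimmest genes, 129 were lower and 4 higher, with a median difference of -0.27 (log2). Among the 3157 brightest, 48 were lower and 43 higher, with a median of 0.03. The late MKK7D controls had a median of -0.28 against the shared controls over the same dim genes. The MKK7D transgenic arrays had -0.24 there against transgenic females of the other lines. The median signal of the arrays moves with this difference, and its part in the calls of dim genes was not tested. Quantile normalization left 213 calls (59 rises and 154 falls), 198 of which were among the 397.

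The 12 largest rises by the naming rule were of Casq1, Rrp9, Avp, Mvk, Nfil3, Zc3h3, Slc1a4, Def8, Nmnat1, Fam160b1, Atrn and Slc38a1. Casq1 had signals of 10459, 2234 and 6851 on shared males 1, 2 and 5, 5348, 1627 and 2687 on shared females 4, 1 and 2, and 18868, 37267 and 14071 on early MKK7D controls 1, 2 and 3. All 3 early arrays were above all 6 shared arrays, and the difference was 2.43 ± 0.61 (log2, SE; adjusted p = 0.0265). Array 2, the one nearest to the transgenic profile, was the highest, and the 6 MKK7D transgenic arrays had 40387 to 62581. The call ended without any 1 of the early arrays, shared male 2 or shared female 1 (adjusted p at most 0.166).

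Mvk had 899, 735 and 187 in shared males, 235, 516 and 818 in shared females and 2155, 1365 and 1739 in the early controls, with no overlap. It was 3.38-fold higher (1.76 ± 0.36, adjusted p = 0.00639) and stayed called whichever of the 9 arrays was left out. Rrp9, which works in maturation of ribosomal RNA, was at 168 to 1761 (median 597) on the shared and at 2520, 2189 and 1931 on the early arrays. The difference was 1.94 ± 0.50 (adjusted p = 0.033). Avp, the vasopressin precursor, was at 344 to 663 on the shared and at 1428, 711 and 5789 on the early arrays, a difference of 1.76 (log2, adjusted p = 0.0206). Array 3 was far above the other 2, and without it the difference was 0.94 and the call ended (adjusted p = 0.239). Atrn, the attractin gene, was at 1851 to 2614 (median 2284) on the shared and at 3581, 4309 and 5301 on the early arrays. It was 1.89-fold higher (0.92 ± 0.17, adjusted p = 0.00403). Slc38a1, a glutamine transporter, was 1.88-fold higher and Nmnat1, which makes NAD in the nucleus, 2.03-fold higher. A further probe set of Nmnat1 did not separate the sets (-0.02), at 1428 to 2180 on the shared and 1537 to 1886 on the early arrays. The call of Nmnat1 ended with the mean of its probe sets.

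The 12 largest falls were of Cysrt1, Zfp991, Hoxa9, Prelid3a, Dusp13, Lsm11, Upk2, Cyp2d13, Thnsl2, Npy, Apoa2 and Hddc3. Most of them were dim, with signals of about 1000 in the shared controls, and several, such as Hoxa9, Upk2 (of the bladder lining), Npy (of neurons) and Apoa2 (of liver), are known from other tissues. Detection calls were not used, so no statement on their presence in heart is made. Cysrt1 was at 2277 to 3359 (median 3078) on the shared arrays and at 298, 925 and 418 on the early ones. This was the largest fall, -2.53 ± 0.55 (adjusted p = 0.0109), with every early array below every shared one. Lsm11, a part of the histone pre-mRNA processing complex, was at 757 to 2065 (median 1311) and at 329, 97 and 438. It fell by 2.21 ± 0.35 (adjusted p = 0.000967). Of the 24 genes, 9 had 12 further probe sets above the filter on low signal, and 4 of these 12 had the opposite sign.

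Calls among these 24 genes rested on single arrays to different degrees. Mvk, Atrn, Slc38a1, Lsm11, Upk2 and Apoa2 kept their call whichever of the 9 arrays was left out. Without early array 1, 9 calls ended (Casq1, Rrp9, Zc3h3, Slc1a4, Cysrt1, Prelid3a, Dusp13, Thnsl2 and Npy). Without early array 2, 11 ended (Casq1, Rrp9, Nfil3, Zc3h3, Slc1a4, Def8, Nmnat1, Fam160b1, Zfp991, Hoxa9 and Thnsl2). Without early array 3, 15 ended (Casq1, Rrp9, Avp, Zc3h3, Slc1a4, Def8, Fam160b1, Cysrt1, Zfp991, Hoxa9, Prelid3a, Dusp13, Cyp2d13, Thnsl2 and Hddc3). Leaving out 1 shared array ended 1 to 3 of the calls, among Casq1, Rrp9, Zc3h3, Slc1a4 and Dusp13. No sign changed in any of these fits.

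**Figure D3:**
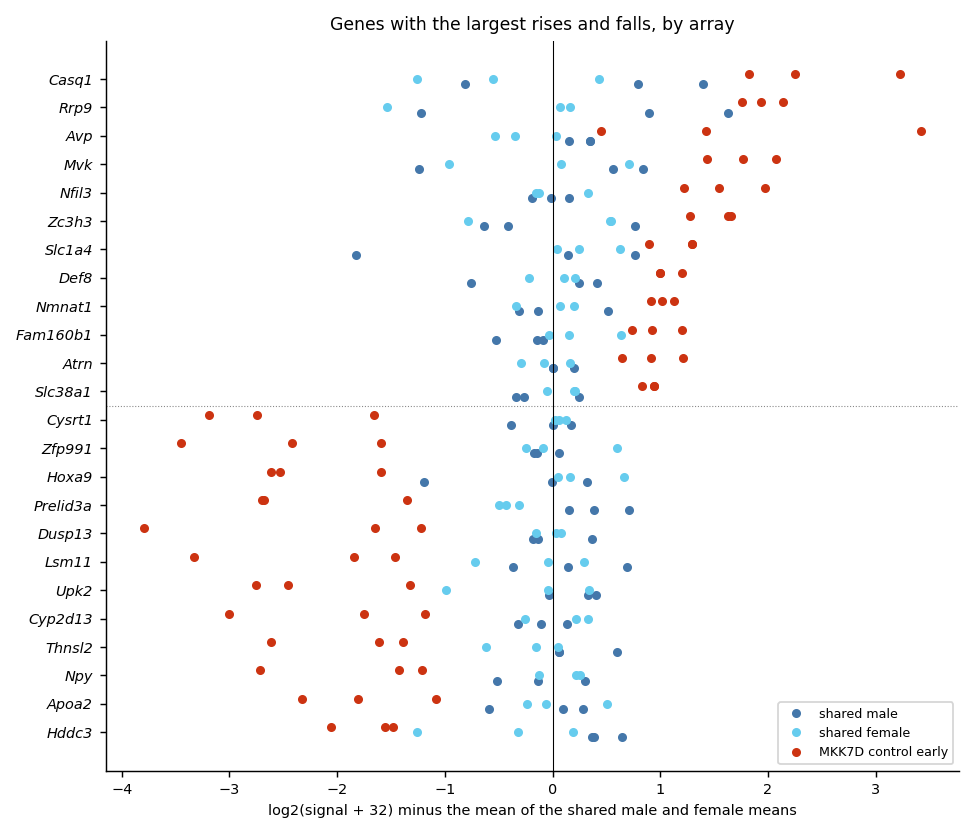
The 12 largest rises (above the dotted line) and 12 largest falls, as log2(signal + 32) on each of the 9 arrays minus the mean of the shared male and female means. By the naming rule the 3 early MKK7D controls (red) lie on one side of all 6 shared controls (blue), and their distance differs between arrays, as for Avp and Dusp13.

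Further called genes with small spread were named after their values were seen. Slc45a1 was at 1992, 2553 and 2616 in shared males, 1927, 2272 and 2096 in shared females and 1015, 576 and 636 in the early controls. It fell by 1.59 ± 0.23 (adjusted p = 0.000337). Strap, a regulator of growth factor signalling and RNA-binding complexes, was at 18720, 19181 and 18872 in the early controls, above the shared arrays at 11421 to 16797. The rise was small, 0.43 ± 0.07 (adjusted p = 0.000967), and larger against the shared females (0.64) than the shared males (0.23, adjusted p = 0.132). Both further probe sets of Strap had the opposite sign (-0.09 and -0.57), so its direction depends on the probe set. Tomm20, a receptor of the mitochondrial import machinery, was at 35034 to 39645 against 44847 to 58080, a fall of 0.47 ± 0.09 (adjusted p = 0.0046). Of its 5 further probe sets, 4 had the same sign and 1 the opposite one. Eif2b1, a subunit of the factor that recharges eIF2, was at 5887 to 6740 against 3530 to 4708, a rise of 0.68 ± 0.11 (adjusted p = 0.00154). The groups did not overlap for these 4 genes, and each call held whichever array was left out.

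Because the early MKK7D controls are titled as females, they were also set against the shared controls of each sex. Against the shared females 185 genes were called (1.47%), 64 higher and 121 lower, and against the shared males 243 (1.92%), 64 higher and 179 lower. Nr1d1, Slc45a1, Lsm11, Mvk, Nfil3, Atrn, Cox8c, Eif2b1 and Aimp1 were called against both. The first count was 33 without shared female 4, 52 without shared female 1, 59 without early array 2, 64 without early array 3, 100 without early array 1 and 16 in a fit of the 9 arrays alone. Between the shared males and females limma called 0 genes (0%), with 1148 at an unadjusted p under 0.05, and Strap had an adjusted p of 0.0502. The count was 61 without shared female 2, the array with Esr1 at 7943. Eif2s3y, at 4326 to 4780 in shared males and 12 to 156 in shared females, was below the filter on low signal and not tested. Xist, at 1232 to 1670 and 4033 to 15354, was tested without a call. The count of 0 therefore does not show that the sexes were alike.

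Among clock genes, the early MKK7D controls differed from the shared controls at Nr1d1 and Nfil3, in opposite directions. Of the 11 tested repressors of the core clock, 1 rose (Nfil3) and 1 fell (Nr1d1), with a median difference of -0.49 (log2) against -0.03 over all genes. None of 3 activators, 4 kinases and ligases and 12 output genes were called, beside 3.14% over all genes tested. Without overlap, 3 of the 30 clock genes were above all 6 shared arrays (Nfil3, Csnk1d and Lonrf3) and 3 below (Nr1d1, Bhlhe40 and Bhlhe41), beside 3.79% and 6.83% of all genes.

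Nr1d1, the repressor whose promoter is shown above, was at 7195, 5608 and 6049 on shared males 1, 2 and 5 and at 5756, 5876 and 5536 on shared females 4, 1 and 2. It was at 2601, 1807 and 1489 on early MKK7D controls 1, 2 and 3. The early controls were lower than all of the other 33 arrays, of which the lowest had 3434. The difference was -1.63 ± 0.23 (log2; adjusted p = 0.000337), 3.09-fold, with -1.56 against the shared females and -1.69 against the shared males. The call held whichever of the 9 arrays was left out (-1.85 to -1.45, adjusted p at most 0.00611). Males and females of the shared controls overlapped and differed by 0.13.

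Nfil3 (E4BP4), which is repressed by Nr1d1 and acts at D-boxes, was at 1173 to 1700 (median 1285) on the 6 shared arrays and at 3994, 5379 and 3172 on the early arrays. The sets did not overlap, and the difference was 1.58 ± 0.33 (adjusted p = 0.00833), 2.99-fold. It was 1.56 against females and 1.59 against males. Array 2 was the highest, and without it the adjusted p was 0.0768. The 6 MKK7D transgenic arrays had 1622 to 3537, a range that overlapped both control sets.

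Ciart, the E-box-driven repressor whose promoter holds 3 such sites, split the shared controls by sex. The shared males had 1642, 2283 and 902, the shared females 4362, 4777 and 4861, and the early MKK7D controls 1085, 850 and 749. The early controls were 5.12-fold below the females (-2.36, adjusted p = 0.0315) and 1.68-fold below the males (-0.74, adjusted p = 0.541), which they overlapped. Over both sexes the difference was -1.55 ± 0.49 and was not called (adjusted p = 0.0774). Early array 1, whose Xist and Eif2s3y were those of males, was at 1085, the highest of the 3.

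Dbp, the D-box activator, had the same order. It was at 16043, 21823 and 7811 in shared males, at 43690, 30016 and 23368 in shared females and at 9549, 9211 and 12031 in the early controls, which lay below every female and inside the range of the males. The difference was -1.62 against females (adjusted p = 0.0626) and -0.46 against males (adjusted p = 0.657). Per1 and Per2, negative arms of the clock, were 2.33-fold and 2.35-fold below the females without being called (adjusted p = 0.0936 and 0.109). Against the males their differences were 0.05 and 0.25. Arntl, the activator whose phase is opposite to Dbp, was at 1760, 763 and 4175 in males, 648, 565 and 127 in females and 1157, 1431 and 1293 in the early controls. Its difference was 1.72 against females (adjusted p = 0.161) and -0.46 against males (adjusted p = 0.77), and the early controls lay inside the range of the males.

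Within the shared controls, 7 of the 30 clock genes were lower in every male than in any female (Rora, Per1, Per2, Nr1d2, Ciart, Dbp and Hlf) and 3 were higher (Arntl, Clock and Ppp1r3c). Over all tested genes those shares were 6.5% and 7.95%. None of these differences between shared males and females was called in limma (adjusted p = 0.148 for Per2, 0.225 for Arntl, 0.23 for Per1, 0.349 for Ciart and 0.412 for Dbp). The early controls lay below all 3 shared females for 9 of the 30 clock genes and above them for 5, beside 13.4% and 10.3% of all genes. They lay below all 3 shared males for 4 and above them for 5, beside 14.8% and 9.52% of all genes. Sex and harvest hour cannot be told apart within the shared controls, since no label gives the hour. The genes whose signals over the 9 arrays were most like those of Dbp were Tnrc6a (Pearson r = 0.974), Cbx3 (0.971), Tbx6 (0.941), Zfp692 (0.914) and Zfp207 (0.912), given as a description over 9 arrays that share these groups.

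The other repressors and outputs differed less. Bhlhe40 (Dec1), a repressor at E-boxes, was at 7498 to 10558 (median 9344) on the shared and at 5809, 6627 and 6164 on the early arrays, without overlap, and was not called (-0.56 ± 0.20, adjusted p = 0.122). Bhlhe41 (Dec2) was at 623 to 1018 against 344 to 515 (-0.79 ± 0.23, adjusted p = 0.0555). Nr1d2, the paralog of Nr1d1, was at 25239 to 29307 on the early arrays, below the shared females at 40050 to 47482, and overlapped the males at 25727 to 37856. Cry1, Cry2, Per3, Tef, Hlf, Usp2 and Wee1 had differences between -0.30 and 0.44, none called.

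**Figure D4:**
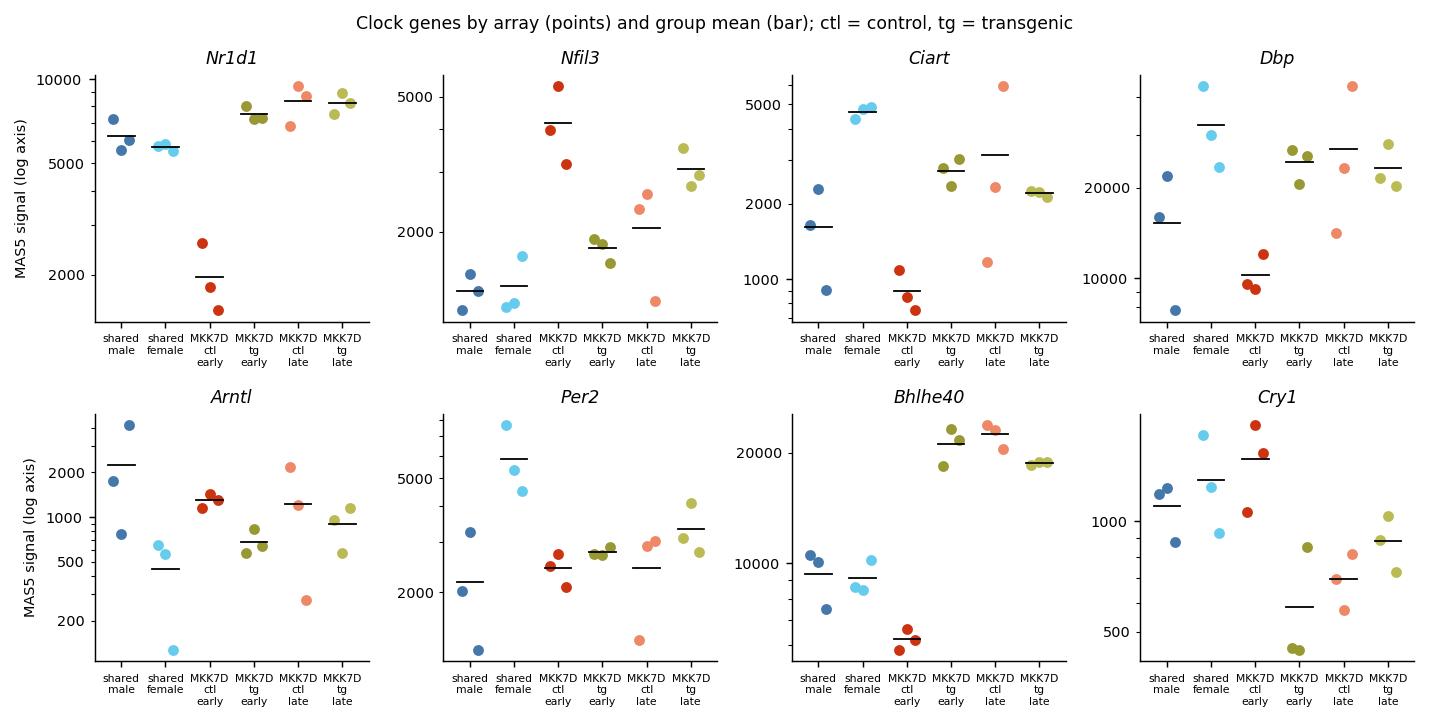
Signals of 8 clock genes (log axis) on each array of 6 groups, with bars at group means. Nr1d1 on the 3 early MKK7D controls (1489 to 2601) lies below every other array, while Ciart, Dbp, Per2 and Arntl separate the shared males from the shared females, with the early MKK7D controls near the males.

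None of the 17 tested members of the list of strain-variable genes was called, beside 3.14% of all genes, a share at which a list of this size would hold few calls or none. The list had a median difference of 0.36 (log2) against -0.03 over all genes, and 11 of 17 differences were above 0. The largest difference in this list was at Trim12a, a restriction factor gene of the Trim5 family. It was at 646, 21 and 110 on shared males 1, 2 and 5, at 504, 543 and 10 on shared females 4, 1 and 2, and at 868, 1337 and 1434 on the early MKK7D controls. All early arrays were above all shared arrays, but the shared arrays themselves spread widely, with 3 at 504 to 646 and the other 3 at 10 to 110. The difference of 2.60 ± 0.85 was not called (adjusted p = 0.0852, and 0.039 to 0.239 with 1 of the 9 arrays left out). A further probe set of Trim12a was at 242 to 798 on the shared and at 723, 818 and 803 on the early arrays. There the sets overlapped (0.91).

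Relatives of Trim12a on chromosome 7 of GRCm38.p6 had a similar order among the shared arrays with their brightest probe sets. Trim30d was at 758, 194 and 470 in shared males, 810, 884 and 32 in shared females and 701, 794 and 590 in the early controls. Trim34a, named after its values were seen, was at 1088, 405 and 601 in shared males, 1335, 2169 and 273 in shared females and 2017, 2221 and 2298 in the early controls. With these probe sets all 3 genes were lowest on shared female 2, the array whose Esr1 stood apart, and next lowest on shared male 2. On further probe sets of Trim12a and Trim30d shared male 5 was lowest (242 and 137). A further Trim34a probe set, like that of Trim30d below the filter on low signal, was highest on shared female 2 (1095) and differed by -1.56. The order therefore depends on the probe set. Probes of such closely related genes can share sequence, so these 3 signals may not be independent.

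Other genes of the list varied by less. Nnt, the mitochondrial transhydrogenase that carries a deletion in C57BL/6J mice, was at 84295 to 100841 on the shared and 84689 to 109325 on the early arrays with its brightest probe set. A further probe set of Nnt was at 46093 to 57997 on the shared and at 30563, 36784 and 32836 on the early arrays, without overlap, so the probe sets disagree. Alad, of haem synthesis, whose copy number varies between strains, was at 8197 to 19138 (median 14700) on the shared and at 20697, 16529 and 21625 on the early arrays (0.51, adjusted p = 0.394). Its neighbour Hdhd3 did not separate the sets either, at 1772 to 2796 and 1751 to 2534. Glo1, Ide, Wdfy1 and the class II gene H2-Eb1 had differences of 0.36, 0.38, -0.55 and -0.60, none called.

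Fah and Hddc3, also on chromosome 7, were both lower and both called, outside the list. Fah, the last enzyme of tyrosine breakdown, was at 9161, 9344 and 9504 in shared males, at 4949, 3943 and 8088 in shared females and at 3868, 1898 and 2598 in the early controls. It fell by 1.40 ± 0.28 (adjusted p = 0.00632), by 1.79 against males and, without a call, by 1.01 against females (adjusted p = 0.112). Without early array 2 its adjusted p was 0.0773. Hddc3, a pyrophosphohydrolase, was at 4913, 4044 and 4107 in shared males, 2492, 1286 and 3565 in shared females and 1102, 1043 and 727 in the early controls, a fall of 1.70 ± 0.38 (adjusted p = 0.0124). Without early array 3 its call ended (adjusted p = 0.0835).

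Called genes were spread over the genome. Among the chromosomes of GRCm38.p6 with at least 100 tested genes, the share of called genes ran from 2.18% on chromosome 16 to 4.6% on chromosome 15. There were 13 pairs of neighbouring tested genes with both called, 9 of them in the same direction. Cd209f and Cd209g, lectin receptor genes of myeloid cells on chromosome 8, fell by 1.03 and 1.46. Their near-identical sequences make the split between them uncertain. Oxt and Avp on chromosome 2 went in opposite directions (-0.72 and 1.76), as did Slc45a1 and Errfi1 on chromosome 4 (-1.59 and 0.91).

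**Figure D5:**
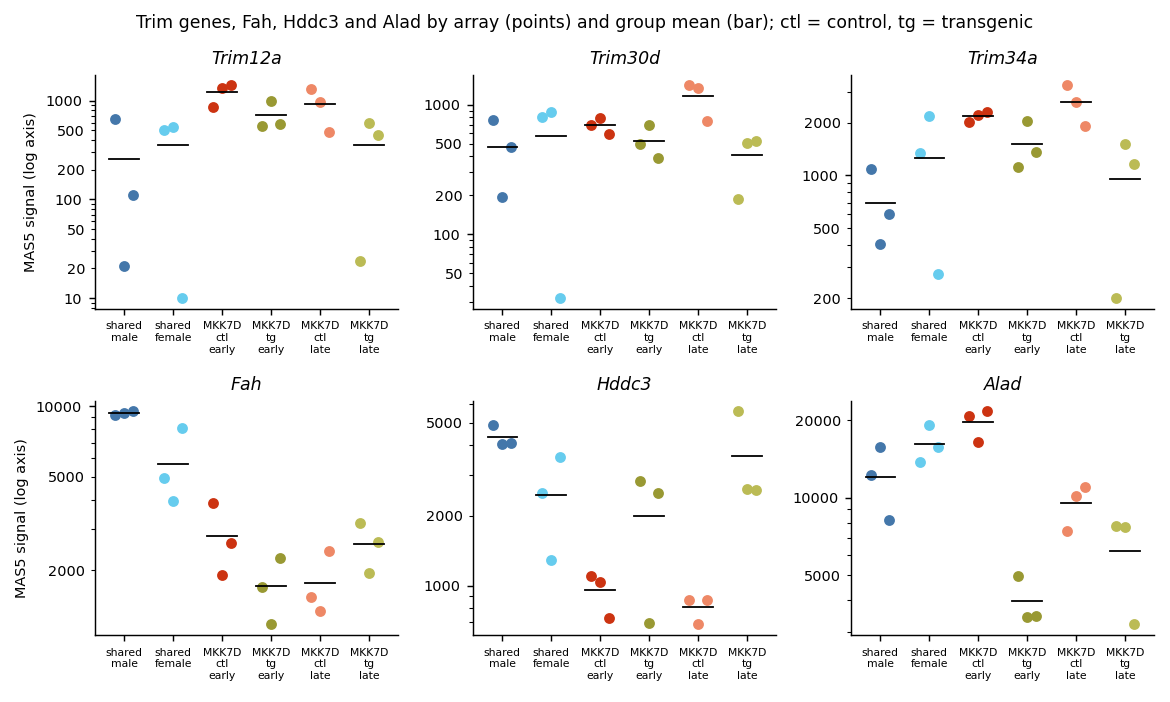
Signals of Trim12a, Trim30d, Trim34a, Fah, Hddc3 and Alad (log axis) on each array of 6 groups, with bars at group means. With their brightest probe sets the 3 Trim genes are lowest on shared female 2 and shared male 2 among the 6 shared controls. Alad is at 3451 to 4938 on the 3 early MKK7D transgenic arrays and at 16529 to 21625 on their early controls.

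Lists of heart genes held 0 or 1 called members each, beside 3.14% of all genes, so these counts were near the background. Of 31 extracellular matrix genes none was called, although 27 had differences above 0 and the median was 0.43 (log2). Col4a2, a basement membrane collagen, was at 13971 to 20828 on the shared and 18020 to 26229 on the early arrays. Of 19 sarcomere genes, 1 fell (Actc1, the cardiac actin, -0.48 ± 0.12, adjusted p = 0.033), 17 had differences below 0 and the median was -0.27. Actc1 was at 151305 to 213116 on the shared and at 116652, 119060 and 144760 on the early arrays, without overlap. Its call ended without shared males 1 or 2, shared female 4, or early arrays 1 or 2 (adjusted p at most 0.149). Actc1 is also 1 of 9 ventricular muscle markers, of which 8 had differences below 0. None of 40 respiratory chain, 24 fatty acid oxidation, 21 calcium handling and 13 fetal program genes was called, with medians of -0.15, -0.10, -0.08 and 0.18. After quantile normalization the medians were 0.02 for sarcomere, 0.026 for respiratory chain and 0.003 for fatty acid oxidation genes. They were -0.068 for calcium handling, 0.241 for fetal program and 0.41 for extracellular matrix genes. The ventricular marker median was -0.295 before and -0.016 after it, so the medians of the sarcomere and ventricular lists changed with the scaling. Actc1 itself was still called lower after quantile normalization. In bulk tissue, fewer cells of a type and less RNA per cell cannot be told apart.

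Each stress-responsive list held at most 1 called gene, beside 3.14% of all genes. Junb was the 1 faller of 21 immediate early genes. It was at 2943, 2662 and 2399 in shared males, 4487, 3227 and 2487 in shared females and 1534, 1031 and 1101 in the early controls. The sets did not overlap (-1.28 ± 0.29, adjusted p = 0.0157), and the call ended without early arrays 2 or 3 (adjusted p at most 0.0995). Errfi1, a feedback inhibitor of the EGF receptor, was the 1 riser of 12 glucocorticoid-responsive genes, at 2763 to 4792 on the shared and 6056, 10448 and 4894 on the early arrays. Its call (0.91 ± 0.22, adjusted p = 0.0251) ended without early array 2 or shared male 2 (adjusted p at most 0.238). Hspa4 was the 1 riser of 15 heat shock genes (0.48 ± 0.12, adjusted p = 0.0247) and lost its call without early arrays 1 or 2 or shared male 5 (adjusted p at most 0.179). Rpl37 fell among 25 ribosomal protein genes (-0.71 ± 0.16, adjusted p = 0.0118), with 8129, 8672 and 7586 on the early arrays against 10153 to 18861, and lost its call without early array 3 (adjusted p = 0.0723). None of 13 fasting-responsive, 22 histocompatibility and interferon-stimulated and 23 MAP kinase feedback genes was called, with medians of 0.01, -0.28 and 0.07.

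Markers of other cell types were mostly not called, beside 3.14% of all genes, and lists this short would hold few calls or none at that share. None of the tested markers of fibroblasts (10), endothelium (10), macrophages (10), smooth muscle and pericytes (8), neutrophils (3), adipocytes (3), atrial muscle (6), skeletal muscle (2 of 8 listed), red blood cells (2), mesothelium (3) and Schwann cells (2) was called, and their summed signals overlapped. The fibroblast markers summed to 301191 to 389249 on the shared and 336272 to 419422 on the early arrays, with 8 of 10 differences above 0 and a median of 0.46. The 2 tested skeletal muscle markers, Ckm (also bright in heart) and Atp2a1, summed to 148987 to 173700 on the shared and 114212 to 154849 on the early arrays, with a median of -0.25. After quantile normalization that median was -0.014. Atrial markers summed to 18898 to 253157 and 92133 to 172257, and shared female 2 had Nppa at 3428 while the other shared arrays had 29365 to 116006. Ms4a1, the single tested lymphocyte marker, was dim (468 to 846 and 49 to 502) and lost its call without any 1 of 7 of the 9 arrays (adjusted p at most 0.421).

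The late MKK7D controls, set against the same 6 shared arrays, had 2092 called genes (16.6%), 862 higher and 1230 lower. This comparison uses the same shared arrays as the first, so the values are only set side by side. Slc45a1 was at 744, 683 and 617 on the late controls (-1.67) beside -1.59 at the early time. Fah differed by -2.04 and -1.40, Hddc3 by -1.92 and -1.70, Lsm11 by -1.41 and -2.21, Atrn by 0.74 and 0.92, and Casq1 by 2.52 and 2.43 (late and early). For Casq1 the late value rested on late arrays 8 and 9, at 51518 and 29059. Late array 10 was at 7835, inside the shared range of 1627 to 10459. Nr1d1 did not follow: it was at 6827, 9488 and 8750 on the late controls, 0.47 above the shared controls (adjusted p = 0.159). Bhlhe40 was at 23799, 23118 and 20522 on the late controls, 1.29 above the shared controls. The count for the late controls was 600 without late array 8 and 602 without late array 9, the arrays with high Esr1.

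The early and late MKK7D controls differed directly at 10 genes (0.0792%), with 1855 at an unadjusted p under 0.05. Nr1d1 (-2.09), Bhlhe40 (-1.85), Pdcd4, Arrdc3, Bbip1, Lrrc42 and Lyplal1 were lower at the early time, and Nmb (3.33), Nkx2-5 (0.64) and Nudt22 were higher. Leaving out late array 10 raised the count to 712 and leaving out early array 2 to 52. It was 4 without early array 1, 5 without early array 3, 5 without late array 8 and 5 without late array 9.

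The MKK7D transgenic females, against transgenic females of the HRas-v12 and MKK3bE lines, share no array with the control comparison. There 1896 genes were called (15%), 878 higher (6.95%) and 1018 lower (8.06%). Of the 299 genes lower in the early MKK7D controls, 282 were also lower in the MKK7D transgenic arrays (94.3%, beside 54.9% of all genes), and 134 were called so. Those 134 are 44.8% of the 299 and 13.2% of the 1018. Of the 98 higher genes, 86 were higher (87.8%, beside 45.1% of all genes) and 33 called, 33.7% of the 98 and 3.76% of the 878. None was called in the opposite direction. Casq1 (2.87), Rrp9 (1.91), Nfil3 (1.09), Atrn (0.79), Eif2b1 (0.54), Lsm11 (-1.52), Slc45a1 (-0.75), Cox8c (-0.50), Rpl37 (-0.76) and Junb (-0.71) were called in both. Of the 24 largest changes between the controls, 21 had the same sign between the transgenic arrays, 10 were called in that direction and 14 were not called. Among those not called were Mvk (0.35, adjusted p = 0.403), Slc38a1 (-0.01, adjusted p = 0.965), Upk2 (-0.67, adjusted p = 0.101) and Apoa2 (-0.30, adjusted p = 0.449), which had kept their call between the controls whichever array was left out. Nr1d1 (-0.14, adjusted p = 0.644) and Fah (-0.31, adjusted p = 0.34) were not called either. Both comparisons also set arrays of low median signal against arrays of higher median signal, and the part of that in the shared genes was not tested. The transgenic comparison also sets the MKK7D transgene against the HRas-v12 and MKK3bE transgenes. Early control 2 lay part of the way to the late MKK7D transgenic profile (0.587), on a scale where HRas-v12 and MKK3bE transgenic arrays lay at 0.078 to 0.752. The part of the transgene in the shared genes was not tested either. The transgenic count was 1179 without late transgenic array 14.

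Which control set was used changed the picture of the early MKK7D response. Against their own early controls, the 3 early transgenic arrays had 17 called genes (0.135%), 11 higher and 6 lower, with 1346 at an unadjusted p under 0.05. Against the shared females the same 3 arrays had 895 (7.09%), 452 higher and 443 lower, with 3031 at an unadjusted p under 0.05. The first count was 102 without early control 2, the array nearest to the transgenic profile, 3 without early control 1 and 5 without early control 3. It was 6, 7 and 5 without transgenic arrays 5, 6 and 7. The second was 289, 437 and 416 without those transgenic arrays, 323 without shared female 1 and 355 without shared female 4.

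Nr1d1 shows the dependence gene by gene. The early transgenic arrays had 8008, 7229 and 7247, above their own early controls at 2601, 1807 and 1489 (1.95, adjusted p = 0.000394). They were near the shared females at 5756, 5876 and 5536 (0.39, adjusted p = 0.39). Bhlhe40 was higher in the early transgenic arrays (18367, 23193 and 21661) against either set, by 1.76 against their own controls (adjusted p = 0.000394) and by 1.21 against the shared females (adjusted p = 0.00346). Cry1, the clock repressor, was lower against both (-1.32, adjusted p = 0.0439, and -1.13, adjusted p = 0.0155), and its first call ended without any 1 of the early controls (adjusted p at most 0.204).

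Alad and Hdhd3, neighbours on chromosome 4, fell against both sets. Alad was at 4938, 3451 and 3473 on the early transgenic arrays, below the early controls at 16529 to 21625 (-2.31, adjusted p = 0.00331) and the shared females (-2.03, adjusted p = 0.0021). Hdhd3 was at 554, 860 and 720 on those arrays (-1.51 and -1.56), and its first call ended without early control 1 or 3 (adjusted p = 0.187 and 0.109). Casq1, at 40387 to 62581, was called against the shared females (4.18) and not against the early controls (1.29, adjusted p = 0.528).

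Leaving out early control 2 brought further genes past the threshold. Myh7, the slow myosin heavy chain of fetal and stressed ventricle, had a difference of 1.35 against the 3 early controls (adjusted p = 0.25) and of 2.05 without control 2 (adjusted p = 0.0205). Mybpc2 had 1.99 (adjusted p = 0.239) and 2.91 (adjusted p = 0.0319). Tgfb2 had 2.76 (adjusted p = 0.0669) and 3.34 (adjusted p = 0.02), and Klhl41, a Kelch protein of muscle, 1.97 (adjusted p = 0.129) and 2.58 (adjusted p = 0.0314). Nr1d1 stayed called without any 1 of the early controls (1.77 to 2.17).

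Map2k3, the gene behind the MKK3bE transgene, was at 10176 to 16640 on the shared and 14485 to 15208 on the early arrays (0.26, adjusted p = 0.363) with its brightest probe set. A further probe set, not tested, was at 3268 to 4865 on the shared and at 5878, 7040 and 5857 on the early arrays, without overlap (0.68), so the probe sets disagree. The genes behind MKK7D and HRas-v12 were not analysed here.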

How the data were processed

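Left ventricle RNA was hybridised to 36 Affymetrix Mouse Genome 430 2.0 arrays. The authors deposited a linear intensity for each probe set. Per the submitters' processing notes these signals are from MAS5, with no version named. Each array had a mean signal of 2500 once 2% of probe sets were trimmed at each end. Of 45101 probe sets, 34958 had 1 gene symbol, 932 several and 9211 none. Symbols came from the platform annotation and were updated through RefSeq gene numbers (34754 matched). Here log2(signal + 32) was taken without further scaling. Probe sets in the upper 60% by mean (a signal of about 414.2) were kept, and the brightest of each gene gave 12627 genes. The 64 control probe sets were left out.

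A model of 13 group means over all 36 arrays was fitted in limma 3.58.1 (R 4.3.3, eBayes with trend, 23 residual and 4.61 prior degrees of freedom). The p-values were adjusted over all genes (Benjamini-Hochberg), and a gene was called under 0.05. Shared controls enter as the mean of the male and female means. Each ± is a standard error. Differences on this scale understate changes of dim genes. The fit was tested on simulated data. The labels number replicates without naming separate animals, so a p-value measures only how far these arrays spread. The number of arrays limits precision. No batch or scan time was used.

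Named genes were the 12 largest rises and 12 largest falls among called genes whose early arrays lay on one side of all shared arrays, tested clock and strain-variable genes, up to 4 called genes (or the 2 with the smallest p) of each other list, Esr1, Map2k3, Xist, Eif2s3y and the 5 genes most like Dbp. Other names were chosen after their values were seen. Cox8c, Aimp1, Fah, Cd209f, Cd209g, Oxt, Klhl41 and Myh7 are such names too, though not each is marked where it appears. For early against late MKK7D controls all 10 called genes are named. Members, lists and rule were chosen with earlier results of these data known. Alternatives covered the arrays fitted, quantile normalization, a smaller and a larger pseudocount, filters, probe set means, a replicate block and leaving out arrays. RefSeq promoters (GRCm38.p6) matched 27 of 35 clock genes. Where a gene had several, the one with most motif matches, otherwise the first, was shown.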

Additional observations from a re-analysis of the deposited data

Results flagged for a closer look

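Among 120 named genes tested, 14 had 1 of the 6 shared controls lying far from the other 5, relative to the range of the group. Chance gives such a flag in about 1 in 20 groups (5 percent) if values are normally distributed. The share over all tested genes was not computed, so the 14 are not read as an excess. Each is a value of a shared control, so it widens the spread against which the early MKK7D controls were compared. No cause was tested.

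Shared female 2 stood apart at Esr1, with 7943 against 832 on the next array, at Zfp991 with 3972 against 2720, and at Upk2 with 467 against 930. Shared male 1 stood apart at 5 genes. Its signal was 7195 for Nr1d1 (next 6049) and 15658 for Hmgcs1, a cholesterol synthesis enzyme (next 12284). It was low for Cysrt1 at 2277 (next 2998), Klk1 at 1034 (next 2203) and Mmp9 at 151 (next 670). Shared male 2 was low for Hoxa9 at 322 (next 771) and Sox10 at 976 (next 1571), and high for Hspa4 at 12257 (next 10470). Shared male 5 was low for Slc1a4 at 168 (next 696) and Cbx3 at 461 (next 679). Shared female 4 was high for Atp5b, a subunit of ATP synthase, at 173309 (next 144947).

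For Nr1d1 the distant array was the highest of the shared controls, and the difference without it was still called. The early MKK7D controls were not tested for distant arrays, since each group held 3.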

How the results depend on the processing

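The count between early MKK7D and shared controls, 397, was 170 in a fit of the 9 arrays, 117 in one of the 12 control arrays, 213 after quantile normalization, 257 in the upper 40% of probe sets and 63 with only early control 3, an alternative added after seeing the data. Against shared females, 185 became 16, 3 and 112 under the first 3 of these and 28 under the last. Between shared males and females, 0 became 4 (quantile), 7 (pseudocount 1), 8 (the larger pseudocount), 6 (upper 40%), 2 (no filter) and 4 (probe set means). Early transgenic arrays against their own controls gave 27 in the upper 40% and 53 with probe set means in place of 17. The causes were not tested, beyond fewer genes or arrays in some fits.

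Shared and early arrays numbered 1 or 2 did not deviate together from their group means (correlations -0.007, -0.047, -0.092 and -0.068). This gave no sign of pairing by number, and so few arrays could not exclude it. A fit with the replicate number as a block gave 1 gene against both shared sexes and 0 against the females (1646 and 1575 at an unadjusted p under 0.05 in limma). In that fit early array 3, shared male 5 and shared female 4 each had a number that no other of the 9 arrays carried. They therefore added nothing to the comparison, and few degrees of freedom were left. Loss of calls followed from this design, so it does not bear on single genes.

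Leaving out 1 array gave 117 to 403 for early MKK7D against shared controls, 33 to 202 against shared females, 600 to 2738 for late against shared controls, 4 to 712 for early against late controls, 1179 to 2130 for the transgenic comparison, 0 to 61 for shared males against females, 3 to 102 for early transgenic arrays against their controls and 289 to 780 against shared females. Over 594 alternative values of 32 called named genes, 421 kept the call, 173 lost it and 0 changed sign. None of the 32 was called under every alternative, since the block, with the limits given above, ended each of these calls. Nr1d1, Atrn and Upk2 lost their call under the block alone. Signals near the filter may carry a larger spread, which was not measured here.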
